A study of Mus musculus with 24 samples.

Results

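T cells activated for 24 h with ovalbumin peptide plus a TLR7 agonist were compared with T cells activated for 24 h with the peptide alone. The libraries were chosen by their group label: 4 libraries labelled TLR7_24h and 4 labelled OVA_24h, 8 of the 24 libraries of the series. Messenger RNA was sequenced from T cells that had been drawn by immunomagnetic negative selection from spleen cell cultures of OT-1 mice, and the labels give the cell type as CD8+ T cells. The other 16 libraries hold the TLR2 agonist at 24 h and all 3 conditions at 72 h.

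Cells of the TLR7_24h group had OVA peptide (2 µg/mL) and a TLR7 agonist, added 1 h ahead of the peptide, and were taken at 24 h. Cells of the OVA_24h group had the peptide at the same dose, no agonist, and the same 24 h in culture. Cells of both groups came from mice of the same transgenic strain, OT-1 of the Jackson Laboratory, in which nearly all CD8 T cells share 1 receptor for ovalbumin. The sources used here give neither the age nor the sex of the mice. The labels list 2 agonists that act on TLR7, gardiquimod at 3 µg/mL and R848 at 10 µg/mL, without saying which one the sequenced cultures received. The agonist was present in whole spleen cell cultures, so B cells, dendritic cells and macrophages were exposed to it beside the T cells, and the T cells were purified afterwards. Nothing in the labels says whether the 4 replicates were separate mice, separate cultures or one culture, so the p-values cover only the spread among these libraries, possibly a technical one.

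TLR7 is an endosomal receptor for single-stranded RNA that signals through MyD88 to NF-kB and interferon regulatory factors, and it is best known from plasmacytoid dendritic cells and B cells, where it drives type I interferon and cytokine production. A CD8 T cell that meets its peptide leaves the resting state within a day, divides, and acquires cytokine and granzyme expression under T-bet, Irf4 and related factors. Interferon and IL-12 from antigen-presenting cells are known as a further signal that shapes this programme.

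The 8 libraries did not form 2 uniform groups. On the first principal component of all 24 libraries, which held 60.2% of the variance and ran from 72 h to 24 h libraries, TLR7_24h replicates 1 and 2 lay at 0.93 and 0.998 of the range, and replicates 3 and 4 at 0.403 and 0.397. OVA_24h replicates 2 and 4 lay at 0.974 and 0.957, and replicates 1 and 3 at 0.369 and 0.411. Each group therefore held 2 libraries with a 24 h position, called clear here, and 2 in the middle of the range (0.333 to 0.667), called in-between. The labels do not say why, and whether the in-between libraries are wholly of the time their labels give was not tested, so values of 4 against 4 hold for the libraries as labelled. Values are given for all 8 libraries and, where it matters, within the clear and within the in-between libraries. The split was made on these same expression values, which takes part of the spread between replicates out of the test. Adjusted p from fits that use the split are therefore likely too small and serve as a description. Totals were 10.9 to 25.7 M counts in TLR7_24h and 11.1 to 24.5 M counts in OVA_24h. The shallow library on each side, TLR7_24h replicate 2 and OVA_24h replicate 4, was a clear one.

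**Figure D1:**
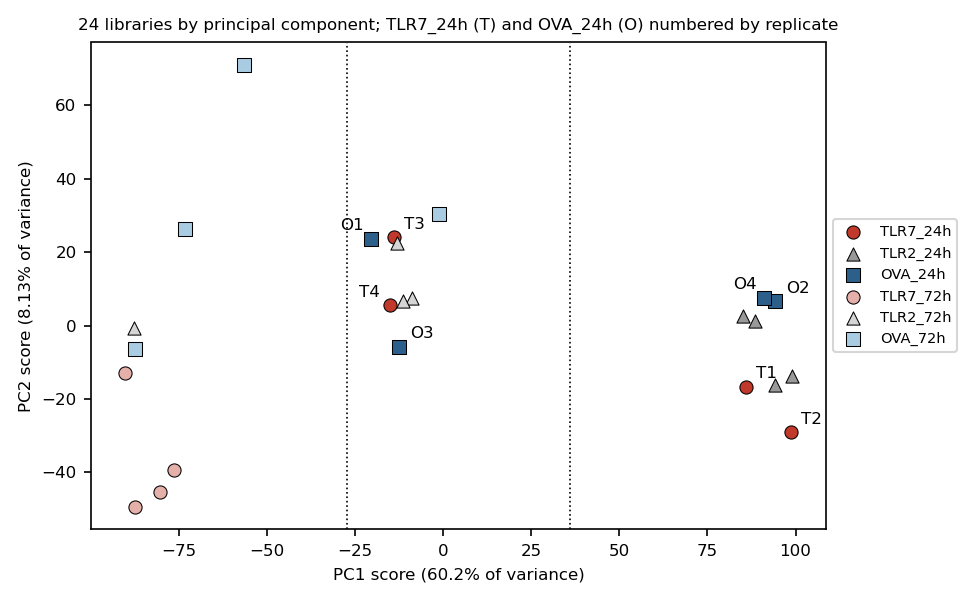
Scores of the 24 libraries on the first component (horizontal, 60.2% of the variance) and the second (vertical, 8.13%), with dotted lines at 0.333 and 0.667 of the first component's range. TLR7_24h libraries (red circles) and OVA_24h libraries (dark blue squares) each have 2 libraries at the right with TLR2_24h and 2 between the dotted lines, together with 4 of the 72 h libraries.

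All 18 CD8 T cell markers were detected, and their summed level was 4670 to 6720 CPM in TLR7_24h and 6460 to 6850 CPM in OVA_24h (CPM, counts scaled to a common library total after TMM normalisation). Cd8a was at 457, 508, 650 and 593 CPM in the TLR7_24h libraries and at 655, 904, 622 and 870 CPM in the OVA_24h libraries. Within the clear libraries 6 of the 18 markers were called lower with the agonist and 1, Cd2, higher, where 724 of all 15944 genes tested, 4.54%, were called (352 lower and 372 higher). Cd4 was at 0.259 to 0.8 CPM in TLR7_24h and 0.949 to 2.0 CPM in OVA_24h. Neutrophil markers summed to 2.12 to 10.7 CPM in TLR7_24h and to 3.27, 153, 3.34 and 28.0 CPM in OVA_24h replicates 1 to 4, with replicate 2 far above the rest. In such bulk libraries, fewer cells of a type and less RNA per cell cannot be told apart.

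With the agonist, 22 genes rose and 10 fell at 24 h, out of 14560 tested, or 0.22% of them (edgeR quasi-likelihood test over all 24 libraries, Benjamini-Hochberg adjusted p under 0.05). Of these, 19 rises and 9 falls were at least 2-fold. Il21, Tnf, the regulators of NF-kB and cell death Nfkbiz and Cflar, the transcription factors Etv6, Gfi1, Tox2 and Atf6, and the kinase Jak2 were among the rises. The falls included Fcmr, Cd79b and Fcer2a of the B cell marker list, the peptide-loading chains H2-DMb1 and H2-DMb2, and Icosl. In all 32 called genes the TLR7_24h libraries did not overlap with the OVA_24h libraries. Over all genes tested, every TLR7_24h library was above every OVA_24h library for 526 genes, 3.61%, and below every one for 441 genes, 3.03%. At an unadjusted p under 0.05 there were 1471 genes. The count of calls rested on the libraries kept: it was 0 in a fit of these 8 libraries alone (edgeR; 1122 genes at an unadjusted p under 0.05) and without the libraries under 15 M counts (714 genes). It was also 0 without TLR7_24h replicate 1 or 2 or OVA_24h replicate 2 or 4 (edgeR; 1021 to 1341 genes at an unadjusted p under 0.05), 3 without OVA_24h replicate 3, 6 without OVA_24h replicate 1 and 146 without TLR7_24h replicate 3. With DESeq2 it was 246, of which 31 were among the 32.

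Il21, on chromosome 3 (GRCm38 chr3:37222759-37232636, minus strand), encodes a cytokine of activated T cells that acts on B cells, CD8 T cells and NK cells. It was at 192, 193, 86.6 and 55.9 CPM in the TLR7_24h libraries, against 2.83, 0.318, 6.39 and 0.177 CPM in the OVA_24h libraries. Every TLR7_24h library was above every OVA_24h library, and the 2 clear TLR7_24h libraries were above the in-between ones. The log2 fold change was 5.69 ± 1.19 (SE; adjusted p = 0.0461, edgeR). OVA_24h replicate 4 was under the level of 3 counts, which was 0.122 to 0.27 CPM in the OVA_24h libraries, so the size of this fold change depends on the prior count. Gm12534, an antisense transcript that overlaps Il21, and Gm43822, which starts just beyond the 5′ end of Il21, were at 3.89 to 9.88 CPM and 2.55 to 8.68 CPM in TLR7_24h and at 0 to 1.36 CPM and 0 to 0.495 CPM in OVA_24h. The sources used here do not say whether counting used strand, so reads of Il21 and Gm12534 cannot be told apart. The same holds for Etv6, Atf6, Map1b, Timp1, Gfi1, Mmd, Slc25a10, Tpbg, Rogdi and Wdfy1, which overlap other annotated genes.

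Tnf, the inflammatory cytokine, was at 45.3, 37.3, 23.8 and 28.1 CPM in TLR7_24h and at 15.3, 12, 16.5 and 9.19 CPM in OVA_24h. Its groups did not overlap, and its log2 fold change was 1.34 ± 0.28 (SE; adjusted p = 0.0483, edgeR). Of the 27 tested genes of the T cell cytokine list, Il21 and Tnf were called, against 32 of all 14560 genes tested. A positive log2 fold change was seen in 14 of the 27, against 6710 of all genes. On the higher side 8 did not overlap and on the lower side 3, against 3.61% and 3.03% of all 14560 genes tested. The list's median log2 fold change was 0.36, against -0.03 over all genes tested.

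The remaining cytokines did not pass the test over all 8 libraries, and several had wide gaps between the groups. Il2, the T cell growth factor, was at 219, 224, 98.3 and 107 CPM in TLR7_24h, against 15.7, 46.2, 13.2 and 33.3 CPM in OVA_24h. The lowest TLR7_24h library was above 2 times the highest OVA_24h library, and the log2 fold change was 2.58 ± 1.24 (SE; adjusted p = 0.494, edgeR). Within the clear libraries it was 2.5 (edgeR adjusted p = 0.00967). For the in-between libraries it was 2.79 (edgeR unadjusted p = 3.2e-05), and no gene passed the adjusted test there.

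Ifng, the cytokine of macrophage activation, was at 603, 439, 203 and 214 CPM in TLR7_24h and at 186, 121, 44.8 and 58.1 CPM in OVA_24h. Its groups did not overlap, and its log2 fold change was 1.83 ± 0.57 (SE; adjusted p = 0.183, edgeR). Il22 was at 1.12 to 4.0 CPM in TLR7_24h and 0.182 to 0.33 CPM in OVA_24h, and Il17f at 0.995 to 2.06 CPM and 0.0884 to 0.536 CPM; both adjusted p were 0.104 (edgeR). Lif, an IL-6 family cytokine, was at 240, 195, 123 and 123 CPM in TLR7_24h, against 79.9, 34.3, 127 and 30.0 CPM in OVA_24h, where the in-between libraries of the groups overlapped. Cytokine genes with lower values were Tgfb1 at 34.2 to 49.7 CPM in TLR7_24h and 59.6 to 77.1 CPM in OVA_24h, Tnfsf11 (RANKL) at 9.84 to 20 CPM and 35.3 to 89.6 CPM, and Ccl1 at 0.0432 to 0.0954 CPM and 0.787 to 4.86 CPM. Their adjusted p were 0.105, 0.204 and 0.172 (edgeR).

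Of the 38 tested NF-kB targets and regulators 3 rose and none fell, against 22 and 10 of all 14560 genes tested. In this list 23 had a positive log2 fold change, against 6710 of all genes, and the median was 0.11, against -0.03. Cflar encodes c-FLIP, which holds back caspase-8 at death receptors. It was at 251, 302, 167 and 185 CPM in TLR7_24h, against 114, 102, 93.3 and 106 CPM in OVA_24h, a log2 fold change equal to 1.13 ± 0.2 (SE; adjusted p = 0.0283, edgeR). The OVA_24h libraries were close together, and all TLR7_24h libraries were above them. Nfkbiz, a nuclear cofactor of NF-kB, was at 117, 115, 72.5 and 89.9 CPM in TLR7_24h and 51.2, 29.8, 31.1 and 33.2 CPM in OVA_24h, a log2 fold change equal to 1.44 ± 0.27 (SE; adjusted p = 0.0286, edgeR). Tnf, above, also belongs to this list. Nfkbie, the inhibitor IkB-epsilon, had the smallest p of the lower members, at 14.5 to 19.2 CPM in TLR7_24h and 23.7 to 36.9 CPM in OVA_24h (edgeR adjusted p = 0.0511).

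Jak2, the kinase of several cytokine receptors, rose. It was at 398, 440, 284 and 264 CPM in TLR7_24h, against 187, 174, 160 and 197 CPM in OVA_24h, with no overlap and a log2 fold change equal to 0.95 ± 0.19 (SE; adjusted p = 0.0409, edgeR). Of the 24 tested genes of the TLR pathway none was called; Tlr7 itself was at 24.4, 21.8, 13.2 and 6.52 CPM in TLR7_24h and 9.05, 20.5, 9.69 and 11.4 CPM in OVA_24h, and these ranges overlapped. Myd88, the TLR adaptor, was at 72.7 to 133 CPM in TLR7_24h and 58.2 to 77.3 CPM in OVA_24h (edgeR adjusted p = 0.307). Among costimulatory receptors, Cd28 was at 648, 851, 498 and 519 CPM in TLR7_24h and 355, 259, 299 and 333 CPM in OVA_24h; the groups did not overlap, and the edgeR adjusted p was 0.0542.

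Of the immediate genes downstream of the T cell receptor, none of 30 tested was called, 19 had a positive log2 fold change and the median was 0.19. Egr2, a zinc finger factor induced by receptor signalling, was at 52.7, 48.3, 23.9 and 22.7 CPM in TLR7_24h and 7.71, 19.0, 8.25 and 18.6 CPM in OVA_24h (edgeR adjusted p = 0.273). The groups did not overlap, and within the in-between libraries its log2 fold change was 1.5 (edgeR unadjusted p = 0.000125). No gene passed the adjusted test within those libraries. Cd69, an early activation antigen, was at 360 to 696 CPM in TLR7_24h and 206 to 356 CPM in OVA_24h (edgeR adjusted p = 0.117).

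Of the called rises 4 encode DNA-binding transcription factors. Etv6, an ETS family repressor, was at 263, 259, 166 and 183 CPM in TLR7_24h and 124, 104, 119 and 92.1 CPM in OVA_24h, a log2 fold change equal to 0.99 ± 0.17 (SE; adjusted p = 0.0283, edgeR). Gfi1, a zinc finger repressor of lymphocytes and myeloid cells, was at 102 to 146 CPM in TLR7_24h and 47.3 to 78.6 CPM in OVA_24h. Atf6, a sensor of unfolded protein in the endoplasmic reticulum, was at 132 to 197 CPM and 73.5 to 91.9 CPM. Tox2, an HMG box factor, was low, at 2.77, 2.67, 1.12 and 0.876 CPM in TLR7_24h against 0.118, 0.136, 0.0825 and 0 CPM in OVA_24h. The OVA_24h libraries held 8 Tox2 counts in all, so its fold change is uncertain in size. Tox2 averaged 0.382 CPM in TLR2_24h, 0.062 CPM in TLR7_72h and 0.0114 CPM in OVA_72h. It therefore passed the filter on low counts mainly through the TLR7_24h libraries, where it is high, and its call is a description. Under the stricter filter it was not tested.

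Tox2, which passed the filter mainly through TLR7_24h, was the one gene called among 26 effector and exhaustion factors. Their median log2 fold change was 0.61. A positive log2 fold change was found for 20 of them. On the higher side 9 did not overlap, against 3.61% of all 14560 genes tested. Tbx21 (T-bet), the driver of type 1 effector genes, was at 160, 124, 79.6 and 73.4 CPM in TLR7_24h and 44.1, 59.3, 48.1 and 36.9 CPM in OVA_24h, with no overlap (edgeR adjusted p = 0.0924). Ahr, the aryl hydrocarbon receptor, was at 33.5, 35.1, 16.5 and 14.8 CPM in TLR7_24h, against 7.2, 6.5, 5.24 and 8.04 CPM in OVA_24h (edgeR adjusted p = 0.0511). Stat5a, which relays IL-2 signals, was at 200 to 377 CPM in TLR7_24h and 124 to 170 CPM in OVA_24h (edgeR adjusted p = 0.0924). Within the clear libraries 11 of these 26 factors were called higher, against 372 of all 15944 genes.

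The other called rises came from no single class. Sema7a, a membrane-anchored semaphorin that binds integrins, was at 133, 103, 54.5 and 62.6 CPM in TLR7_24h and 21.7, 18.4, 19.2 and 22.1 CPM in OVA_24h, a log2 fold change equal to 2.12 ± 0.39 (SE; adjusted p = 0.0283, edgeR). Its OVA_24h libraries were close together, and its lowest TLR7_24h library was above 2 times the highest of them. Armcx6 was at 23.7 to 42.6 CPM in TLR7_24h and 7.87 to 12.4 CPM in OVA_24h. Enc1, a kelch protein, was at 31.6 to 51.9 CPM and 14.5 to 23 CPM, and Wdfy1, a lipid-binding protein of endosomes, at 17.2 to 20.4 CPM and 5.39 to 11.9 CPM.

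The predicted gene E430024P14Rik was at 18.2 to 41.7 CPM in TLR7_24h and 8.46 to 11.4 CPM in OVA_24h. The next 5 rises were at low levels. Gja1 (connexin 43, a gap junction protein) was at 3.58 to 5.53 CPM in TLR7_24h and 0.795 to 1.53 CPM in OVA_24h. Timp1, an inhibitor of metalloproteinases, was at 1.68 to 4.92 CPM and 0.0884 to 0.371 CPM, and Map1b, a microtubule protein, at 1.56 to 3.82 CPM and 0.273 to 0.707 CPM. Tpbg, the membrane glycoprotein 5T4, was at 1.08 to 3.91 CPM in TLR7_24h and 0 to 0.289 CPM in OVA_24h. Tmem35 was at 8.92 to 20.2 CPM in TLR7_24h and 1.5 to 4.73 CPM in OVA_24h; it overlaps another annotated gene on the same strand, so its count is uncertain. In each of these 5 genes the 2 clear TLR7_24h libraries were above the 2 in-between ones.

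**Figure D2:**
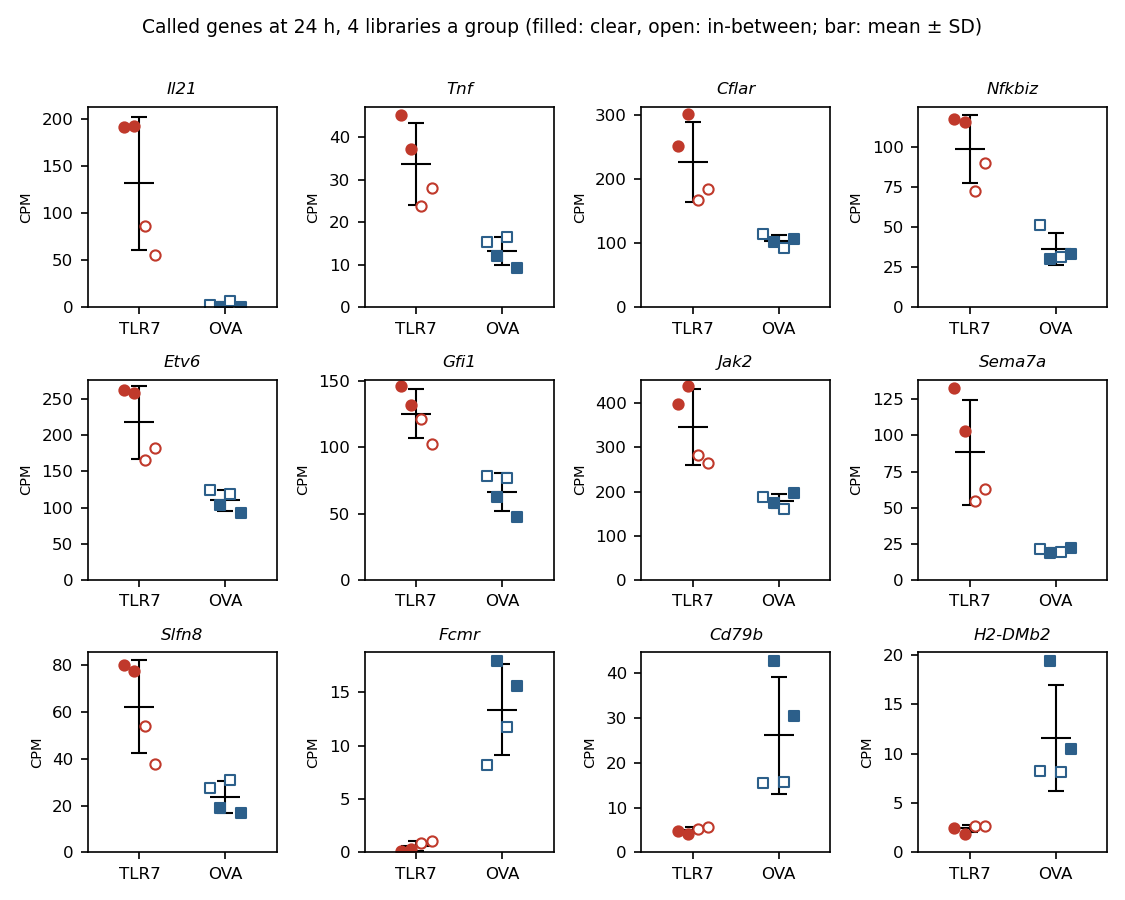
CPM of 12 called genes in the 4 TLR7_24h libraries (red circles, left in each panel) and the 4 OVA_24h libraries (blue squares, right); filled symbols are clear libraries, open ones in-between, and bars are mean ± SD. In every panel the groups do not overlap, as for Il21 at 55.9 to 193 CPM with the agonist and 0.177 to 6.39 CPM without it.

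Type I interferon response genes had the highest median log2 fold change of the 38 lists, at 0.69 over 47 genes tested, against -0.03 over all genes. Of the 47, 41 had a positive log2 fold change. On the higher side 9 did not overlap and on the lower side 1, against 3.61% and 3.03% of all 14560 genes tested. At an unadjusted p under 0.05 (edgeR) there were 21, all 21 of them higher, against 799 higher genes of all 14560. The 1 called was Slfn8, a Schlafen family gene, at 79.9, 77.3, 53.9 and 37.9 CPM in TLR7_24h and 27.7, 18.9, 30.9 and 16.9 CPM in OVA_24h, a log2 fold change equal to 1.4 ± 0.28 (SE; adjusted p = 0.0411, edgeR). Slfn8 has near-identical relatives, among which the counting could split reads. Zbp1, a sensor of left-handed nucleic acid, was at 157, 93.4, 116 and 66.0 CPM in TLR7_24h and 51.7, 46.1, 55.3 and 24.7 CPM in OVA_24h (edgeR adjusted p = 0.0511). Parp14 and Eif2ak2 (PKR, which blocks translation on double-stranded RNA) were at 75.2 to 134 CPM and 35.4 to 76.9 CPM in TLR7_24h, against 48.7 to 68.9 CPM and 19.9 to 36.5 CPM in OVA_24h. The median of the list was 1.35 within the clear libraries and 0.37 within the in-between libraries. In the clear libraries 12 members were called higher, against 372 of all 15944 genes.

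Promoter sequence is shown for the members of this list with the smallest p that hold an interferon-stimulated response element, the short sequence through which type I interferon is known to act on its target genes. It was searched as GAAA, any 2 bases and GAAA, on both strands, in the 250 bases before each start of the RefSeq promoter table (GRCm38.p6). The table matched 36 of the list's 48 genes, and 15 of these, 41.7%, held a match, against 3.46% of all 27025 genes of the table. Of the 15 called rises with an entry, 1 held it, Slfn8, and of the 9 called falls with an entry none did. A kB site, searched in the same windows as GGGA, any 2 bases and TTCC, was in 12.9% of the 31 matched NF-kB targets, 1.36% of all genes and in none of the called genes with an entry. Capitals mark the match, and each stretch is written 5′ to 3′ on the gene's strand. A match describes letters and is not a site of binding or a cause.
Slfn8 (chr11:83020819-83020888, minus): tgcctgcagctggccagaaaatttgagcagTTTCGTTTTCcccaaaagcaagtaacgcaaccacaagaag
Trim30a (chr7:104465194-104465259, minus): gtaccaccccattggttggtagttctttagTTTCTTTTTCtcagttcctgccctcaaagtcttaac
Bst2 (chr8:71537563-71537632, minus): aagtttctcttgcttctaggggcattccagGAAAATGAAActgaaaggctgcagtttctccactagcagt
Rsad2 (chr12:26456533-26456602, minus): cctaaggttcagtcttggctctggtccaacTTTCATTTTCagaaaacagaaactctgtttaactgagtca
Stat2 (chr10:128270248-128270315, plus): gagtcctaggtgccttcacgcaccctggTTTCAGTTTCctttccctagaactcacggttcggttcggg
Cxcl10 (chr5:92349063-92349132, minus): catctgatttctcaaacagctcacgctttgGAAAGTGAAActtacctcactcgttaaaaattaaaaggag

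The genes of these promoters other than Slfn8 were not called. Trim30a was at 206, 193, 205 and 91.1 CPM in TLR7_24h and 86.0, 69.4, 85.4 and 33.1 CPM in OVA_24h, with no overlap (edgeR adjusted p = 0.104). Cxcl10, a chemokine for CXCR3-bearing T cells, was at 85.8, 53.8, 30.5 and 18.7 CPM in TLR7_24h and 12.3, 30.5, 11.1 and 17.9 CPM in OVA_24h, with overlap (edgeR adjusted p = 0.405). Bst2, Rsad2 and Stat2 had log2 fold changes of 0.72, 1.36 and 0.68, with edgeR adjusted p of 0.2, 0.236 and 0.356.

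Genes of the interferon-gamma response and antigen presentation were not called in any of 36 tested, 27 of which had a positive log2 fold change, with a median of 0.29. Gbp5, a guanylate-binding protein induced by interferon-gamma, was at 293, 345, 175 and 155 CPM in TLR7_24h and 73.8, 114, 77.4 and 95.5 CPM in OVA_24h, with no overlap (edgeR adjusted p = 0.061). Ciita, the master regulator of MHC class II genes, was the member with the smallest p on the lower side, at 0.346 to 1.14 CPM in TLR7_24h and 2.72 to 6.19 CPM in OVA_24h (edgeR adjusted p = 0.167). Of the 22 tested genes of the IL-12 and STAT4 response, none was called and the median was 0.23. This list had a median of 0.95 within the clear libraries and 0.04 within the in-between ones. In the clear libraries 6 of its genes were called higher and 1 lower, against 372 and 352 of all 15944 genes.

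None of 19 cytotoxic effector genes and none of 19 inhibitory receptors was called. Gzmb (granzyme B) was at 3630, 3170, 2290 and 2410 CPM in TLR7_24h and 1590, 800, 1910 and 324 CPM in OVA_24h, with no overlap (edgeR adjusted p = 0.2). In OVA_24h the in-between libraries held the higher levels. Fasl (Fas ligand) was at 2.5 and 3.91 CPM in the clear TLR7_24h libraries and 30.8 and 17.1 CPM in the in-between ones, against 23.2 to 32.5 CPM in OVA_24h. Within the clear libraries Fasl was called lower, with a log2 fold change of -2.93 (edgeR adjusted p = 0.00263), and within the in-between libraries it was -0.27 (unadjusted p = 0.447).

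Pdcd1, the gene of the inhibitory receptor PD-1, was at 32.9, 28.3, 144 and 54.1 CPM in TLR7_24h and 98.9, 106, 59.1 and 108 CPM in OVA_24h. The groups overlapped, and the log2 fold change was -0.51 ± 0.41 (SE; adjusted p = 0.776, edgeR). The 2 clear TLR7_24h libraries were below all OVA_24h libraries, with a log2 fold change of -1.78 within the clear libraries (edgeR adjusted p = 0.046), and within the in-between libraries it was 0.29 (unadjusted p = 0.549). Cd160, another inhibitory receptor, was at 12.8, 14.3, 40.2 and 26.8 CPM in TLR7_24h, against 46.6, 62.6, 28.7 and 61.8 CPM in OVA_24h (edgeR adjusted p = 0.283).

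**Figure D3:**
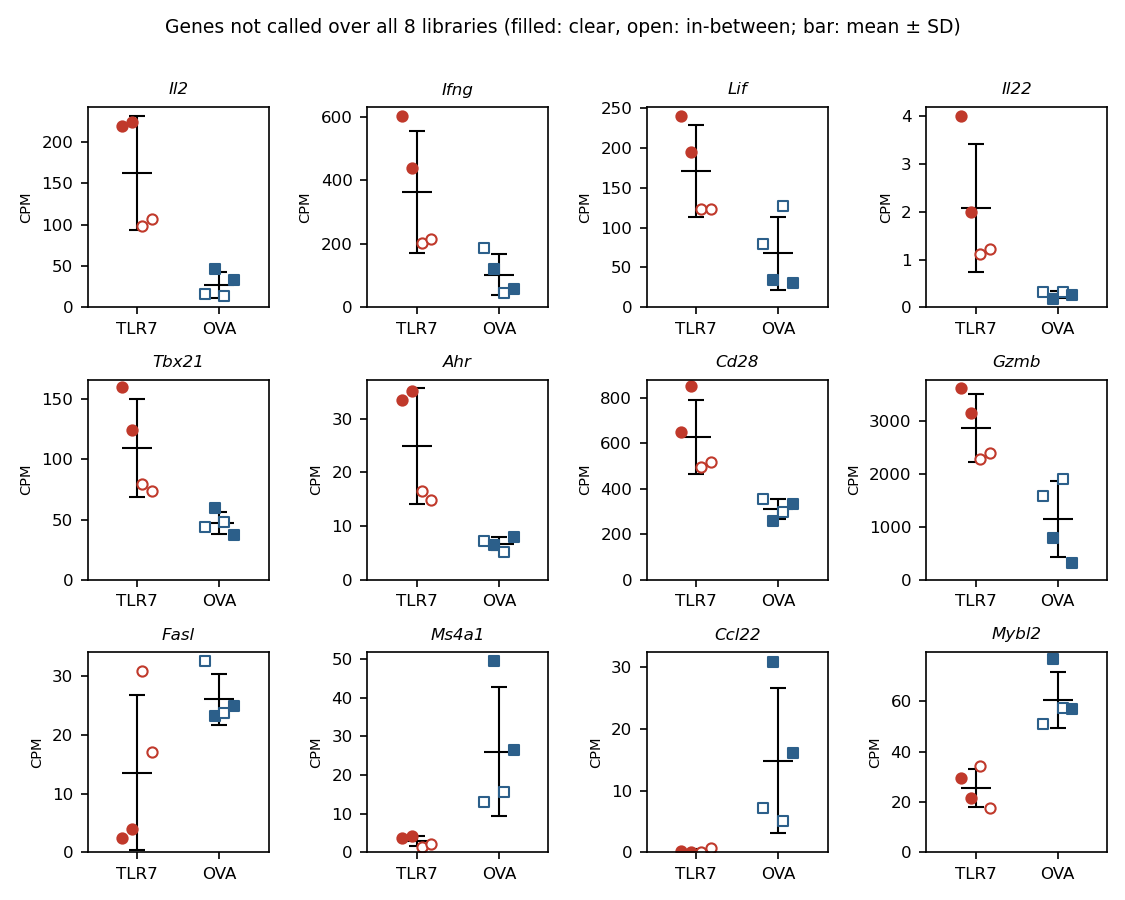
CPM of 12 genes that did not pass the test over all 8 libraries, drawn as TLR7_24h (red circles, left) and OVA_24h (blue squares, right), with clear libraries filled, in-between ones open and bars for mean ± SD. For Il2 the groups are apart, at 98.3 to 224 CPM and 13.2 to 46.2 CPM, and for Fasl the TLR7_24h libraries split into 2.5 and 3.91 CPM (clear) and 30.8 and 17.1 CPM (in-between).

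All 32 tested genes of G1/S and DNA replication had a negative log2 fold change, with a median of -0.61, and none was called. On the lower side 10 did not overlap, against 441 of all 14560 genes tested (3.03%). At an unadjusted p under 0.05 (edgeR) there were 13, against 672 lower genes of all 14560. Mybl2 (B-Myb, a cell cycle transcription factor) was at 29.5, 21.6, 34.3 and 17.6 CPM in TLR7_24h and 51.0, 76.7, 57.5 and 57.1 CPM in OVA_24h, with no overlap (edgeR adjusted p = 0.0624). Rrm2, which with Rrm1 makes deoxynucleotides, was at 59.7, 82.6, 102 and 46.0 CPM in TLR7_24h and 128, 309, 166 and 157 CPM in OVA_24h (edgeR adjusted p = 0.122). Lig1, the ligase of replication, was at 100 to 168 CPM in TLR7_24h and 177 to 289 CPM in OVA_24h (edgeR adjusted p = 0.121). Medians of the list were -0.67 within the clear libraries and -0.53 within the in-between ones.

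Of 32 genes of G2/M and mitosis, 25 had a negative log2 fold change, with a median of -0.43, and none was called. Cdk1, the mitotic kinase, was at 38.0, 41.1, 81.3 and 44.5 CPM in TLR7_24h and 87.6, 162, 102 and 93.9 CPM in OVA_24h, with no overlap (edgeR adjusted p = 0.0773). Aurkb (Aurora B kinase) was at 10.7, 10.7, 55.1 and 24.5 CPM in TLR7_24h and 49.8, 49.5, 56.5 and 31.8 CPM in OVA_24h, where TLR7_24h replicate 3 lay among the OVA_24h libraries. Within the clear libraries 16 of the 32 genes were called lower, against 352 of all 15944 genes, and the median was -1.35. The median within the in-between libraries was -0.05.

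The 10 called falls included 3 of the B cell marker list. H2-DMb2 (chr17:34143307-34151555, plus strand) and H2-DMb1, chains from outside that list of the complex that loads peptides onto MHC class II, were at 1.91 to 2.72 CPM and 0.865 to 1.79 CPM in TLR7_24h, against 8.17 to 19.4 CPM and 3.31 to 3.77 CPM in OVA_24h. They are close copies of each other, so the split of reads between them is uncertain. Fcmr, a receptor for IgM, was at 0.0879, 0.286, 0.908 and 1.03 CPM in TLR7_24h and 8.22, 17.9, 11.8 and 15.6 CPM in OVA_24h, a log2 fold change equal to -4.46 ± 0.74 (SE; adjusted p = 0.0283, edgeR). Every OVA_24h library was more than 5 times the highest TLR7_24h library. Cd79b, a chain of the B cell receptor, was at 4.79, 4.1, 5.19 and 5.68 CPM in TLR7_24h, against 15.5, 42.7, 15.6 and 30.4 CPM in OVA_24h, with no overlap and a log2 fold change equal to -2.39 ± 0.43 (SE; adjusted p = 0.0283, edgeR).

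Fcer2a (CD23, the low-affinity IgE receptor) was at 0, 0.0954, 0.216 and 0.0381 CPM in TLR7_24h, which came to 7 counts in all, and at 4.72, 17.0, 6.31 and 8.57 CPM in OVA_24h, which came to 745 counts. Its edgeR adjusted p was 0.0461, and the size of its fold change depends on the prior count. Icosl, the ligand of ICOS on antigen-presenting cells, was at 1.32 to 2.21 CPM in TLR7_24h and 6.53 to 9.37 CPM in OVA_24h (edgeR adjusted p = 0.0286). The other falls were Prickle1 (a planar polarity protein) at 4.77 to 6.02 CPM in TLR7_24h and 10.2 to 14.8 CPM in OVA_24h, Mmd at 15.3 to 25.9 CPM and 34.0 to 64.9 CPM, Slc25a10 (the mitochondrial dicarboxylate carrier) at 2.67 to 3.82 CPM and 7.28 to 10.3 CPM, and Rogdi at 1.53 to 2.38 CPM and 3.71 to 4.82 CPM.

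All 24 B cell markers had a negative log2 fold change, against 7849 of all 14560 genes tested, with a median of -1.33. Of the 24, 3 were called lower, Fcmr, Cd79b and Fcer2a, against 10 of all genes. On the lower side 12 of the 24 did not overlap, against 3.03% of all 14560 genes tested. Their summed level was 698, 589, 683 and 515 CPM in TLR7_24h and 771, 1440, 609 and 1120 CPM in OVA_24h, with OVA_24h replicate 3 inside the range of TLR7_24h, and 0 of the 24 were at 0 in all 8 libraries. Ms4a1 (CD20) was at 3.82, 4.29, 1.51 and 2.21 CPM in TLR7_24h and 13.0, 49.4, 15.5 and 26.4 CPM in OVA_24h, with no overlap (edgeR adjusted p = 0.151). Of 14 conventional dendritic cell markers 11 had a negative log2 fold change, with a median of -0.88; H2-Ab1, a chain of MHC class II, was at 6.77 to 26.1 CPM in TLR7_24h and 38.9 to 59.4 CPM in OVA_24h (edgeR adjusted p = 0.0936). Their summed level was 924 to 1160 CPM in TLR7_24h and 931 to 1650 CPM in OVA_24h. Ccl22, a chemokine of dendritic cells, was at 0.0865 to 0.724 CPM in TLR7_24h and 5.12 to 30.9 CPM in OVA_24h (edgeR adjusted p = 0.0798). OVA_24h replicate 2 held the highest sums of B cell, dendritic cell and neutrophil markers. The part of these cell types in the called falls was not tested.

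Within the clear libraries alone, 372 genes rose and 352 fell, 724 or 4.54% of 15944 tested (edgeR, 2 against 2, with the spread taken from all split groups). Of these, 236 rises and 265 falls were at least 2-fold. The split came from the same values, and the common biological coefficient of variation was 0.221 with it and 0.321 without it. The count of 724 is therefore a description. Within the in-between libraries 0 genes were called, 0% (edgeR, 2 against 2), and 494 had an unadjusted p under 0.05. Of the clear rises 325 of 372 (87.4%) had a positive log2 fold change in the in-between libraries, 58 of them at an unadjusted p under 0.05, and of the clear falls 284 of 352 (80.7%) had a negative one, 62 of them at an unadjusted p under 0.05. The median log2 fold change of the clear rises was 1.15 in the clear libraries and 0.26 in the in-between ones, and that of the clear falls was -1.38 and -0.24. The genes were chosen on the clear values, so those medians are a description. The difference between the clear and in-between changes passed the test for 0 genes (edgeR; 1019 at an unadjusted p under 0.05).

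The 32 genes called over the 8 libraries were chosen on these same libraries, and their groups do not overlap, so their direction within either kind of library was fixed by that choice. All but Gm13562, 31 of them, were also called within the clear libraries, which is a description for the same reason. In all 32 the in-between change was the smaller one, at a median of 0.52 of the clear change. For Il21 the log2 fold change was 9.5 within the clear libraries and 3.9 within the in-between ones, and for Fcmr -6.68 and -3.4. For Slc25a10 both values were close, -1.51 and -1.35, and likewise for Gm13562, 2.01 and 1.94. Genes called within the clear libraries and not over all 8 included Il12rb2, a chain of the IL-12 receptor, at 253 and 301 CPM in the clear TLR7_24h libraries and 672 and 588 CPM in the in-between ones, against 36.7 and 34.6 CPM in the clear OVA_24h libraries and 622 and 568 CPM in the in-between ones. Oas3, an interferon-induced enzyme, was at 57.1 and 27.6 CPM in the clear TLR7_24h libraries and 65.4 and 27.5 CPM in the in-between ones, against 5.95 and 3.0 CPM in the clear OVA_24h libraries and 35.2 and 47.9 CPM in the in-between ones. Mctp2 was at 41.8 to 55.1 CPM in TLR7_24h, against 4.59 and 5.83 CPM in the clear OVA_24h libraries and 47.7 and 44.0 CPM in the in-between ones.

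**Figure D4:**
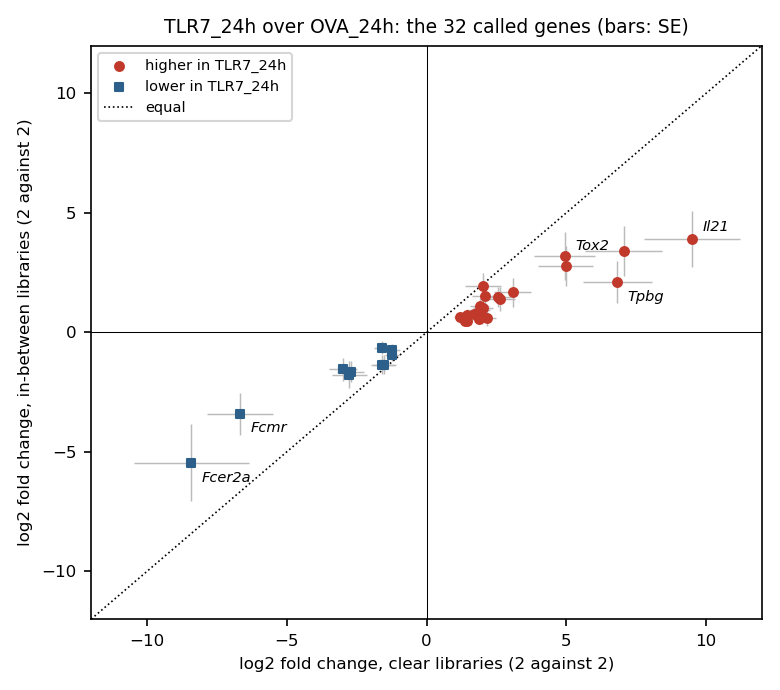
Log2 fold change (TLR7_24h over OVA_24h) of the 32 called genes within the clear libraries (horizontal) and within the in-between libraries (vertical), with SE bars; red circles rose and blue squares fell over all 8 libraries. The shared sign on both axes follows from how the genes were chosen, and all points lie on the side of the dotted line where the in-between change is smaller, as for Il21 at 9.5 and 3.9.

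Whether the changes were particular to the TLR7 agonist was tested directly against the TLR2 agonist at 24 h, whose 4 libraries were all clear ones. In TLR7_24h, 92 genes were higher and 88 lower than in TLR2_24h, 180 or 1.24% of 14560 (edgeR). All 32 genes called against peptide alone had the same direction against TLR2_24h, 26 of them at an unadjusted p under 0.05, and 8 were called: Fcmr, Cflar, Prickle1, Mmd, Slc25a10, Slfn8, Wdfy1 and the predicted gene Gm13562. Both comparisons use the same 4 TLR7_24h libraries, on which the 32 genes were chosen, so these counts are a description and part of them follows from that choice. Cflar averaged 227 ± 61.8 CPM in TLR7_24h, 119 ± 21.8 CPM in TLR2_24h and 104 ± 8.47 CPM in OVA_24h (SD, n = 4 each), and its TLR7 to TLR2 log2 fold change was 0.92 (edgeR adjusted p = 0.0254). Slfn8 averaged 62.2 ± 20 CPM, 20 ± 4.92 CPM and 23.6 ± 6.78 CPM in the same order (SD, n = 4 each), with a log2 fold change of 1.63 (edgeR adjusted p = 0.0171).

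For other genes a difference between the agonists did not pass the test. Il21 averaged 132 ± 71.1 CPM in TLR7_24h, 40.9 ± 30.6 CPM in TLR2_24h and 2.43 ± 2.91 CPM in OVA_24h (SD, n = 4 each), with a TLR7 to TLR2 log2 fold change of 1.69 (edgeR adjusted p = 0.321). Ifng averaged 365 ± 193 CPM, 401 ± 157 CPM and 102 ± 64.7 CPM in the same order (SD, n = 4 each; log2 fold change -0.14, edgeR adjusted p = 0.903). Of the type I interferon list 20 of 47 genes were called higher in TLR7_24h than in TLR2_24h and none lower. Over all 14560 genes tested the counts were 92 and 88. The list had a median of 1.41, against 0.02 over all genes. Trim30a, Zbp1, Stat2 and Parp14 were among the 20, with log2 fold changes of 1.78, 1.68, 1.68 and 1.06. G1/S genes had a median of -0.97 against TLR2_24h, with 6 of 32 called lower, against 88 of all 14560. Because 2 TLR7_24h libraries were in-between and no TLR2_24h library was, position on the first component cannot be told apart from the agonist in this comparison; without the in-between libraries the count was 204, of which 88 were among the 180. The count was 0 without TLR2_24h replicate 1 or 4 (edgeR; 2502 and 2588 genes at an unadjusted p under 0.05) and 629 without TLR7_24h replicate 2.

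The log2 fold change of TLR7 over peptide alone differed between the times (72 h minus 24 h) for 118 genes, 16 higher and 102 lower, 0.81% of 14560 (edgeR). The count was 0 without OVA_72h replicate 2 (edgeR, 1942 genes at an unadjusted p under 0.05) and 752 without OVA_72h replicate 1. OVA_72h replicate 4 was in-between, at 0.471 of the range, and no TLR7_72h library was. Position on the first component was therefore not balanced between these groups. Without the in-between libraries the count was 45, of which 25 were among the 118. Of the 32 called genes 7 were among the 118, and in all 7 the difference ran against the 24 h change. The difference uses the 24 h libraries, so part of this follows from the choice of genes. Slfn8 averaged 21.5 CPM in TLR7_72h and 32.7 CPM in OVA_72h, with a difference of -2.01 (edgeR adjusted p = 0.0248), and Cflar 86.3 CPM and 95.5 CPM, with a difference of -1.27 (edgeR adjusted p = 0.0398). Fcmr averaged 6.7 CPM in TLR7_72h and 3.42 CPM in OVA_72h, with a difference of 5.42 (edgeR adjusted p = 0.0171). Jak2, E430024P14Rik, H2-DMb1 and H2-DMb2 had differences of -1.20, -1.77, 1.69 and 2.32. Of the type I interferon list 13 of 47 genes were called lower in this difference, with Trim30a at 67.1 CPM in TLR7_72h and 156 CPM in OVA_72h. Il2 averaged 0.196 CPM in TLR7_72h and 16.8 CPM in OVA_72h, with a difference of -8.88 (edgeR adjusted p = 0.0538). Its TLR7_72h mean was near the level of 3 counts, 0.116 to 0.286 CPM in those libraries. The size of this difference therefore depends on the prior count.

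**Figure D5:**
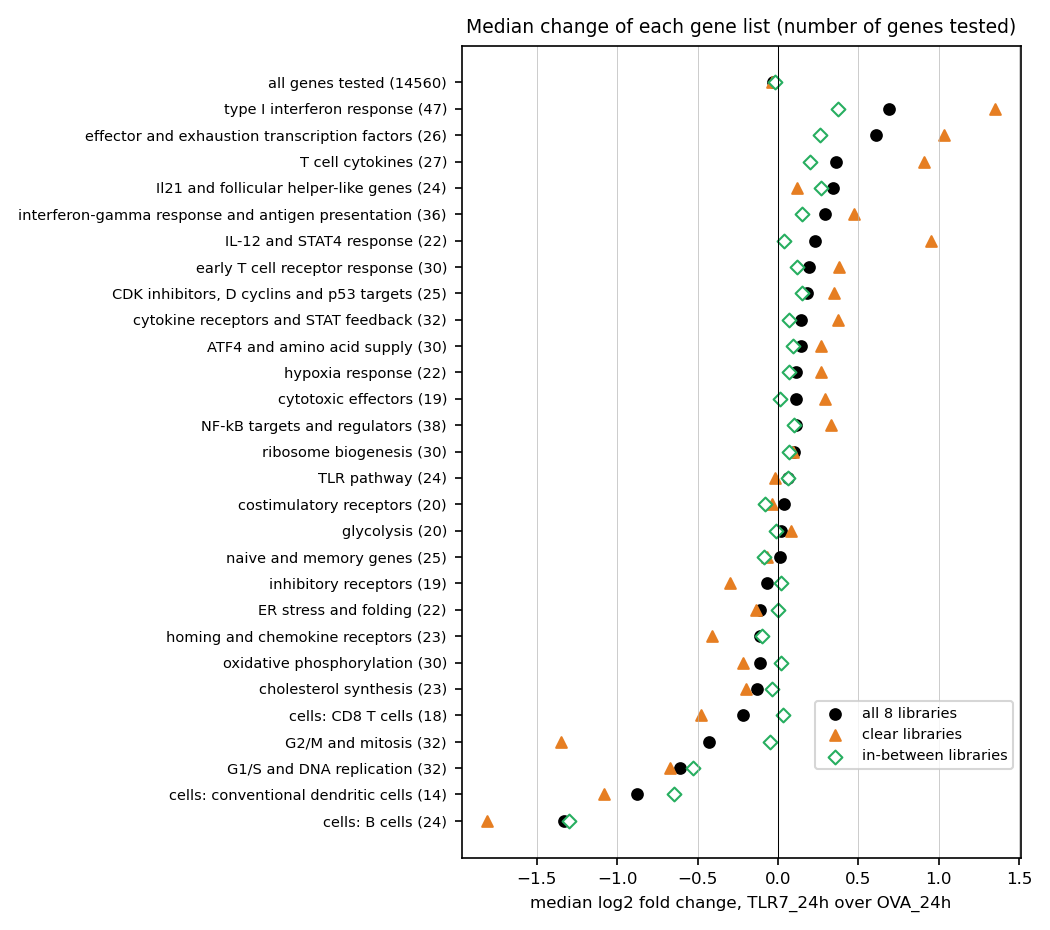
Median log2 fold change (TLR7_24h over OVA_24h, horizontal) of each gene list, with the number of genes tested in brackets, over all 8 libraries (black circles), the clear libraries (orange triangles) and the in-between libraries (green diamonds). Type I interferon genes have the highest median over all 8 libraries, 0.69, and B cell markers the lowest of those drawn, -1.33, while all genes tested lie at -0.03.

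Metabolic lists stayed near the median of all genes. Glycolysis had a median of 0.02 over 20 genes, oxidative phosphorylation -0.11 over 30, cholesterol synthesis -0.13 over 23, ribosome biogenesis 0.10 over 30 and ATF4 and amino acid supply 0.14 over 30; none of their genes was called. Naive and memory genes had a median of 0.01 over 25, homing and chemokine receptors -0.11 over 23 and cytokine receptors with STAT feedback 0.14 over 32, with no call among them. Satb1, a chromatin organiser of T cells, had the smallest p of the naive and memory genes, at 834, 989, 613 and 738 CPM in TLR7_24h and 469, 214, 535 and 207 CPM in OVA_24h, with no overlap (edgeR adjusted p = 0.139). Hypoxia genes had a median of 0.11 over 22, cell cycle inhibitors with p53 targets 0.18 over 25 and costimulatory receptors 0.04 over 20, and none of these was called. The folding and stress genes of the endoplasmic reticulum had a median of -0.11 over 22, with Atf6 the 1 call, and the follicular helper-like genes 0.34 over 24, with Il21 and Tox2 called. Over all genes tested 0.22% were called.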

How the data were processed

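Gene expression was measured by stranded poly-A RNA sequencing in 24 libraries, 4 in each of 6 groups; 8 of them form the comparison and the rest share its model. The authors deposited expected counts per gene without scaling. STAR, RSEM, edgeR and GRCm38 are named in the submitters' processing notes; the sources used here do not give versions, roles or the strand setting. The unit was read from the deposited files, where 28.7% of values above 0 are not whole. The files hold 48526 genes, 48058 of them with GENCODE M21 coordinates.

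Expected counts were rounded. The edgeR 4.0.16 quasi-likelihood test (R 4.3.3, limma 3.58.1) ran after TMM scaling and filterByExpr (minimum count 10, minimum total 15) on all 24 libraries with a term per group, 14560 genes, 18 residual degrees of freedom and a common biological coefficient of variation of 0.321. A second fit split each group into clear and in-between libraries (position between 0.333 and 0.667 of the first component's range; 15944 genes, 14 residual degrees of freedom). Its common biological coefficient of variation was 0.221. The threshold was an adjusted p of 0.05 (Benjamini-Hochberg). The main fit was also run on simulated counts with genes of known change. Those counts held no in-between libraries, so they do not test the fits under the split seen here. Tables and figures used Python with pandas and Matplotlib. Totals ran from 10.5 to 27.1 M counts, so that 3 counts correspond to 0.111 to 0.286 CPM, counting error only. Chi-square per degree of freedom between replicates was 20.3 to 215, so no library was counted as a repeat of another.

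Genes were named by a rule: all called genes apart from predicted ones, up to 3 members of each of 38 lists by p, up to 12 rises and 12 falls within the clear libraries with the same sign in the in-between ones and a mean of at least 5 CPM, and Pdcd1. Il2, Fasl, Ifng, H2-Ab1, Tlr7, Aurkb, Rrm2, Cd8a, Cd4 and some other list members were named after their values were seen. The comparison, its members and the lists were chosen with earlier results of these data known. Replicate numbers were not used to pair the groups in the main fit. Deviations of the same-numbered libraries of TLR7_24h and OVA_24h correlated at -0.616 to 0.525, over 0.1 in 2 of 4 pairs. Replicates 2 and 3 were of the same kind in both groups, clear or in-between, and replicates 1 and 4 were not. The check therefore cannot tell whether the numbers pair the groups.

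Alternatives were RLE scaling, no scaling, no filter, a stricter filter, the replicate block, only the groups compared, DESeq2 1.42.0, leaving out in-between libraries, shallow libraries or each replicate, and in-between status as a term. Promoters came from RefSeq (GRCm38.p6), 250 bases before each start.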

Additional observations from a re-analysis of the deposited data

Results flagged for a closer look

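Of 96 genes examined, those named here and those followed through the alternatives, 14 had an agonist effect that differed between 72 h and 24 h (edgeR, test of the difference; adjusted p from 0.0171 to 0.0464). Over all 14560 genes tested there were 118, or 0.81%, and 0 without OVA_72h replicate 2 (edgeR, 1942 genes at an unadjusted p under 0.05). Many of the 96 were named by their 24 h values, which the difference subtracts. Part of the 14, and of their signs, therefore follows from that choice. Among the 14, the difference in log2 fold change was positive for 3 genes that fell at 24 h, at 5.42 for Fcmr, 2.32 for H2-DMb2 and 1.69 for H2-DMb1. It was negative for 4 genes that rose at 24 h, at -1.27 for Cflar, -1.20 for Jak2, -2.01 for Slfn8 and -1.77 for E430024P14Rik. It was also negative for 7 genes that were not called at 24 h, at -3.40 for Egr2, -2.85 for Rsad2, -2.56 for Trim30a, -1.93 for Gbp5, -1.71 for Zbp1, -1.61 for Eif2ak2 and -1.53 for Parp14. Fcmr averaged 0.578 CPM in TLR7_24h and 13.4 CPM in OVA_24h, and 6.7 CPM in TLR7_72h and 3.42 CPM in OVA_72h, so its order was the other way round at 72 h.

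In 12 of 192 groups of 4 libraries, 1 library lay far from the others, and chance flags about 1 in 20 such groups. In TLR7_24h these were replicate 3 for Cdk1 (81.3 CPM) and replicate 4 for Ccl22 (0.724 CPM) and Tnfrsf8 (76.8 CPM), above the others, and replicate 4 for Trim30a (91.1 CPM), below them. In OVA_24h they were replicate 1 for Nfkbiz (51.2 CPM), replicate 2 for Rogdi (4.82 CPM) and H2-Ab1 (59.4 CPM) and replicate 3 for Gzma (85.8 CPM), Il10 (43.5 CPM) and Tnfrsf8 (365 CPM), above the others. Replicate 4 of OVA_24h was below the others for Armcx6 (7.87 CPM) and Rsad2 (1.15 CPM).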

How the results depend on the processing

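For TLR7_24h against OVA_24h (32 calls, 22 higher and 10 lower), the counts of calls, higher and lower were 246, 143 and 103 with DESeq2, 398, 205 and 193 without the in-between libraries, 474, 227 and 247 with in-between status as a term, 15, 9 and 6 with the replicate block, and 0, 0 and 0 both for only the groups compared (edgeR; 1122 at an unadjusted p under 0.05) and without the libraries under 15 M counts (714). A stricter filter gave 34 higher and no filter 6 lower. Leaving out 1 library gave 0 to 146 calls, 0 to 75 higher and 0 to 71 lower. For TLR7_24h against TLR2_24h (180) they were 1016 with DESeq2, 405 with only the groups compared, 0 without the shallow libraries (edgeR; 2973 at an unadjusted p under 0.05) and 0 to 629 without 1 library. For the 72 h minus 24 h difference (118) they were 457 with DESeq2, 72 with RLE scaling, 22 with only the groups compared, 45 without the in-between libraries, 0 without the shallow libraries (edgeR; 1171) and 0 to 752 without 1 library. In-between status as a term was not run for the TLR2 comparison, where TLR2_24h has no in-between library, or for the difference between times. The cause was not tested. Of 47 named genes 1 changed direction, Nupr1 (0.48), at -0.57 without TLR7_24h replicate 3, with up to 1.55 without another single library. Depth limits the low genes: Fcer2a, Tox2, Tpbg and Ccl1 lay near the floor in 1 group.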

Other observations

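Cell type lists other than those above held no called gene. Plasma cell markers summed to 1090 to 1840 CPM in TLR7_24h and 923 to 1140 CPM in OVA_24h, with the clear TLR7_24h libraries highest, at 1790 and 1840 CPM. Most of that sum was Irf4, which activated CD8 T cells also express. Irf4 was at 1470, 1580, 834 and 860 CPM in TLR7_24h and 588, 712, 679 and 812 CPM in OVA_24h. Among the 11 plasma cell markers tested, 5 had a positive log2 fold change and 6 a negative one. Plasmacytoid dendritic cell markers summed to 140 to 209 CPM in TLR7_24h and 89.7 to 161 CPM in OVA_24h. Their sum includes Bst2, also of the type I interferon list, at 51.4 to 118 CPM in TLR7_24h and 35.1 to 62.9 CPM in OVA_24h. Siglech was low and went the other way, at 0 to 0.132 CPM and 0.206 to 0.669 CPM. Among the 10 plasmacytoid markers tested, 5 had a positive log2 fold change and 5 a negative one. Erythroid markers summed to 1390, 2010, 768 and 787 CPM in TLR7_24h and 616, 1310, 700 and 1150 CPM in OVA_24h, so within each group the clear libraries were above the in-between ones. The globin genes Hba-a2 and Hbb-bs were at 0.259 to 1.24 CPM and 0.419 to 1.1 CPM in TLR7_24h. In OVA_24h they were at 0.454 to 7.54 CPM and 0.315 to 7.45 CPM. Most of the erythroid sum therefore came from other members of the list. For NK cell markers the clear libraries were below the in-between ones, at 385, 354, 632 and 577 CPM in TLR7_24h and 580, 383, 642 and 255 CPM in OVA_24h. The median log2 fold change of 7 neutrophil markers was -3.89, with -4.12 within the clear libraries and -0.79 within the in-between ones, and OVA_24h replicate 2 held most of their counts. Medians were -1.02 over 7 mast cell and basophil markers, -0.52 over 15 NK cell markers and between -0.15 and 0.25 in the lists of plasma cells, macrophages, plasmacytoid dendritic cells, CD4 and regulatory T cells, erythroid cells, platelets and stromal cells.

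Klrk1 (NKG2D) was at 10.6 and 16.9 CPM in the clear TLR7_24h libraries and 224 and 123 CPM in the in-between ones, against 21.9 and 14.7 CPM in the clear OVA_24h libraries and 162 and 117 CPM in the in-between ones. Tnfrsf8 (CD30) was at 8.61, 8.01, 5.41 and 76.8 CPM in TLR7_24h, against 45.5, 1.09, 365 and 0.619 CPM in OVA_24h, and Il10 at 4.48, 2.48, 1.56 and 8.08 CPM, against 2.52, 0.5, 43.5 and 0.265 CPM. OVA_24h replicate 3 was the highest library for Tnfrsf8, Il10, Gzma (85.8 CPM) and Batf3 (88.0 CPM). These genes were chosen after their values were seen.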
